A study of Mus musculus with 18 samples.

Results

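The insulin-like growth factor (IGF) axis was followed in mouse brown adipocytes through 10 genes chosen by symbol: the ligands *Igf1* and *Igf2*, the receptors *Igf1r* and *Igf2r*, and the binding proteins *Igfbp2*, *Igfbp3*, *Igfbp4*, *Igfbp5*, *Igfbp6* and *Igfbp7*. All 10 were found among the 54347 genes of the count table. Of these, 6 (*Igf1*, *Igf1r*, *Igf2r*, *Igfbp4*, *Igfbp6* and *Igfbp7*) passed the filter on low counts and were tested together with all other genes that passed it, 14949 in total. *Igf2*, *Igfbp2*, *Igfbp3* and *Igfbp5* stayed below that filter and are described by their counts.

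The cells were brown adipocytes of the line wt1-SAM, whose immortalised precursors permanently carry the SAM components for CRISPR gene activation. They were differentiated in culture with rosiglitazone, insulin, dexamethasone, T3, indomethacine and IBMX. On day 4 the cells were reverse transfected with 1.4 µl of a 10 µM locked nucleic acid (LNA) antisense oligonucleotide, and on day 7 they were harvested. The LNA was either the negative control ctrlA or one of LNA1 and LNA2, both directed against the long non-coding RNA *Gm15551*. Cells of each LNA were left unstimulated or received 1 µM isoproterenol, a β-adrenergic agonist, for 24 h, which gives 6 groups with 3 libraries each, numbered replicate 2, 3 and 4. All 18 libraries therefore share a single cell line, serum-containing medium, an induction with insulin and an LNA transfection. The labels do not say whether replicates came from separate cultures, so p-values measure the spread between these libraries.

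IGF1 and IGF2 are secreted hormones that signal through the IGF1 receptor, a tyrosine kinase that activates IRS adaptors, PI3K and AKT. The IGF2 receptor binds IGF2 without such a kinase and carries it to lysosomes, and it also sorts lysosomal enzymes that bear mannose 6-phosphate. Binding proteins hold IGFs in the extracellular space, and proteases such as PAPP-A and PAPP-A2 cleave some of them and set IGFs free. Growth hormone drives *Igf1* transcription through its receptor, JAK2 and STAT5, and in fat cells IGF and insulin signalling take part in differentiation and lipid storage.

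The oligonucleotides are shown because the comparisons rest on them, 5′ to 3′, with nothing set in capitals:
ctrlA: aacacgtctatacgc
LNA1: gatgactgagattaga
LNA2: aagtagcacggcgttg
LNA1 and LNA2 were complementary over all 16 bases to the annotated *Gm15551* transcript (chr3:126667329-126669044, minus strand, GRCm38, an antisense lncRNA gene). In the mature transcripts of the IGF axis genes, the longest complementary run was 9 bases for LNA1, in *Igfbp2*, and 8 bases for LNA2, in *Igf1*. The run for *Igf1r* was 8 bases with LNA1 and 7 bases with LNA2, and 40.5% and 62.1% of the tested genes with an annotated transcript held a run as long. Introns were not searched.

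The promoter of *Igf1* is shown because *Igf1* was the gene of the axis that was called after isoproterenol, and that of *Igf2r* because it was the tested gene of the axis with matches to the motifs searched. Both are RefSeq windows from 250 bases before to 50 bases after a start site (GRCm38.p6), at chr10:87860861-87861160 on the plus strand for *Igf1* and chr17:12769657-12769956 on the minus strand for *Igf2r*. Capitals mark matches on either strand to the CRE core TGACG, which is contained in the cAMP response element (CRE), and the E-box CACGTG, which overlap each other at both E-boxes:
Igf1: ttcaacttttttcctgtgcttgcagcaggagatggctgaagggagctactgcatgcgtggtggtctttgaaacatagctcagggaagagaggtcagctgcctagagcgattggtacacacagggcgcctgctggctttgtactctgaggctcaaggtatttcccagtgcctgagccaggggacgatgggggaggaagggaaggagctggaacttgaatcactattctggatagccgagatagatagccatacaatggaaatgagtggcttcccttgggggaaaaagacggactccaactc
Igf2r: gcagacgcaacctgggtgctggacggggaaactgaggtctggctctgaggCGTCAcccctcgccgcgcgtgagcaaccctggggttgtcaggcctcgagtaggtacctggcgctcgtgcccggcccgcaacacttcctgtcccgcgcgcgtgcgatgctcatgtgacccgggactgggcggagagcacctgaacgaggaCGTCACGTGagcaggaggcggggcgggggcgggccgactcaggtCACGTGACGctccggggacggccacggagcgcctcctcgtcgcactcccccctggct
The *Igf1* window held neither motif and no full CRE (TGACGTCA), the palindrome bound by CREB. The *Igf2r* window held 3 CRE cores and 2 E-boxes. Of 32851 RefSeq windows, 20.8% held the CRE core, 7.15% the E-box and 1.79% the full CRE. These matches describe the letters in the windows and show no binding.

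Totals ran from 9167560 to 19723021 counts per library, and 3 counts, taken as the limit of detection, corresponded to 0.17 to 0.306 CPM, the count scaled to the effective library total. *Gm15551*, the targeted gene, had 1 to 14 counts per library, at 0.493 ± 0.267 CPM in ctrlA, 0.341 ± 0.347 in LNA1 and 0.368 ± 0.373 in LNA2 libraries (SD, n = 6), with overlapping ranges. A difference from ctrlA was not detected with LNA1 (lower in 4 of 6 pairs, exact two-sided permutation test within pairs of the same state and number, p = 0.281, adjusted p = 0.5 over 4 such tests) or with LNA2 (lower in 4 of 6 pairs, exact p = 0.375, adjusted p = 0.5), where the smallest possible p was 0.0312. These counts thus do not check the labels. *Ucp1*, the thermogenic uncoupling protein, rose with isoproterenol from 1.12 ± 0.346 to 12.9 ± 2.25 CPM (SD, n = 9; edgeR quasi-likelihood test, adjusted p = 1.12e-08), with no overlap between the states. The 6 libraries numbered replicate 2 stood apart. A single annotated ribosomal RNA gene took 2.88 to 14.3% of their counts against 0.285 to 1.04% in the other 12, and other ribosomal RNA genes were not summed. Mitochondrial genes took 7.86 to 9.79% against 2.56 to 4.97%. Markers of adipocytes were present in every library, at a summed level of 13800 to 29100 CPM over 8 genes.

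Per kilobase of exon, which allows genes to be compared, the binding proteins *Igfbp4* and *Igfbp7* were the most abundant members of the axis. Over all 18 libraries their levels were 46.3 ± 5.2 and 44.3 ± 7.14 CPM per kb (SD, n = 18), with overlapping ranges. Their order differed between the states, at 43 ± 2.92 and 48.3 ± 5.2 CPM per kb in unstimulated and 49.6 ± 4.97 and 40.2 ± 6.67 CPM per kb in stimulated libraries (SD, n = 9), the ranges overlapping in each. *Igf2r* followed at 15.2 ± 6.2 and *Igfbp6* at 11 ± 3.2 CPM per kb, again with overlapping ranges. Without the replicate 2 libraries this pair separated, at 19.3 ± 1.64 for *Igf2r* and 9.67 ± 1.45 for *Igfbp6* (SD, n = 12). *Igf1* at 3.13 ± 1.64 and *Igf1r* at 2.2 ± 0.986 CPM per kb overlapped over all libraries. In unstimulated cells they separated, at 4.56 ± 0.866 for *Igf1* and 2.11 ± 0.882 for *Igf1r*, and in stimulated cells they overlapped with the means in the opposite order, at 1.69 ± 0.593 and 2.3 ± 1.13 CPM per kb (SD, n = 9). *Igf2* reached 0.0663 ± 0.0457 CPM per kb, and *Igfbp5* (0.00982), *Igfbp2* (0.00689) and *Igfbp3* (0.00315) lay lower still. By this measure the cells thus had more RNA for 3 binding proteins and for the IGF2 receptor than for *Igf1* and *Igf1r*, and very little *Igf2* RNA. The exons of all annotated transcripts were merged, and which transcripts the cells expressed was not examined. Without division by length the order differed, with *Igf1* at 45.2 ± 8.56 and *Igfbp6* at 11.1 ± 2.15 CPM in unstimulated libraries (SD, n = 9). 

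**Figure D1:**
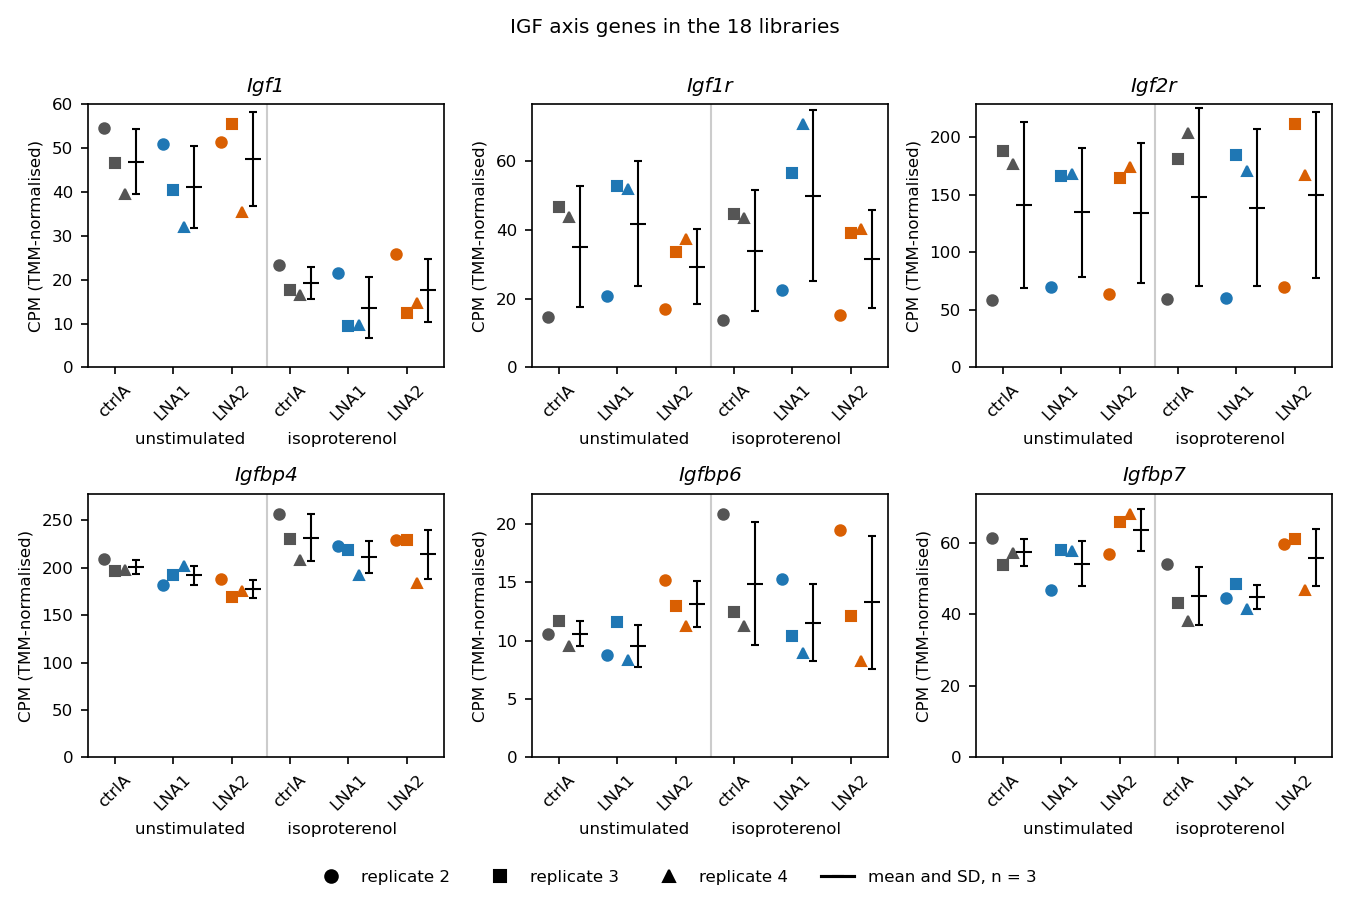
Level in CPM (linear axes from 0) of the 6 tested IGF axis genes in each of the 18 libraries, by LNA and stimulation, with the symbol giving the replicate number and the bar the mean and SD of 3 libraries. *Igf1* lay between 32.1 and 55.6 CPM in unstimulated and between 9.46 and 25.8 CPM in stimulated libraries, and *Igf1r* and *Igf2r* were lowest in every replicate 2 library.

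*Igf1* (ENSMUSG00000020053.18, chr10:87858265-87937042, plus strand, GRCm38, protein-coding) encodes the ligand that fat tissue itself secretes. In unstimulated cells it was at 54.5, 46.6 and 39.6 CPM with ctrlA, at 50.9, 40.5 and 32.1 CPM with LNA1, and at 51.4, 55.6 and 35.4 CPM with LNA2 (replicates 2, 3 and 4). After isoproterenol it was at 23.3, 17.7 and 16.5 CPM with ctrlA, at 21.6, 9.46 and 9.77 CPM with LNA1, and at 25.8, 12.3 and 14.6 CPM with LNA2. Every stimulated library thus lay below every unstimulated library, whichever LNA the cells had received.

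Averaged over the LNAs, *Igf1* fell from 45.2 ± 8.56 to 16.8 ± 5.88 CPM (SD, n = 9). The log2 fold change was -1.44 (SE 0.19, 95% interval -1.86 to -1.03, edgeR quasi-likelihood test, adjusted p = 0.000338). Among the 6 tested genes of the axis it was the single one called, that is, with an adjusted p under 0.05 and an absolute log2 fold change above 0.5. Of all tested genes, 3.2% were called in this comparison, with 1.18% of all tested genes lower and 2.02% higher. The fall of *Igf1* was the 14th largest of 177 called falls, and 0.428% of all genes had 9 stimulated libraries below all 9 unstimulated ones. In all 9 pairs of the same LNA and replicate number *Igf1* was lower after stimulation, with differences from -2.18 to -0.99 on the log2 scale, and such uniformity towards lower levels was seen for 6.91% of genes. The mean of the pairs was -1.15 in replicate 2, -1.89 in replicate 3 and -1.42 in replicate 4. Leaving out each library in turn kept the log2 fold change between -1.61 and -1.37 and the adjusted p at or below 0.00138 (edgeR).

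Within each LNA *Igf1* was lower after stimulation in all 3 pairs. The log2 fold change was -1.29 with ctrlA (SE 0.33, edgeR adjusted p = 0.149), -1.60 with LNA1 (SE 0.34, adjusted p = 0.0436) and -1.44 with LNA2 (SE 0.34, adjusted p = 0.105), against backgrounds of 0.488%, 0.702% and 0.395% of genes called (lower in 0.0803%, 0.194% and 0.1%, higher in 0.408%, 0.508% and 0.294%). With the replicate number as a block, which the pairing of the libraries warrants, all 3 were called, at -1.30 (adjusted p = 0.000183), -1.64 (adjusted p = 2.59e-05) and -1.48 (adjusted p = 7.37e-05). The corresponding backgrounds were 4.03%, 5.04% and 4.25%. Without the block, the call within LNA1 depended on single libraries. Of 18 fits that each omitted one, 13 lost it, with 0.219 as the highest adjusted p (LNA1 stimulated replicate 4 omitted), and it was kept only on omission of replicate 2 of ctrlA unstimulated, ctrlA stimulated, LNA1 stimulated or LNA2 stimulated or of LNA2 stimulated replicate 3. Omission of LNA1 stimulated replicate 2 brought the call within ctrlA (adjusted p = 0.0467), and that of LNA1 or LNA2 stimulated replicate 2 the call within LNA2 (edgeR). The difference between these falls was tested by the interaction terms, which were -0.31 for LNA1 (95% interval -1.31 to 0.68) and -0.15 for LNA2 (95% interval -1.14 to 0.85), both with an adjusted p of 1 (edgeR). The value for LNA1 was -0.80 without LNA1 stimulated replicate 2 and -0.11 without LNA1 stimulated replicate 3, and that for LNA2 -0.52 without LNA2 stimulated replicate 2 and 0.05 without LNA2 stimulated replicate 3.

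**Figure D2:**
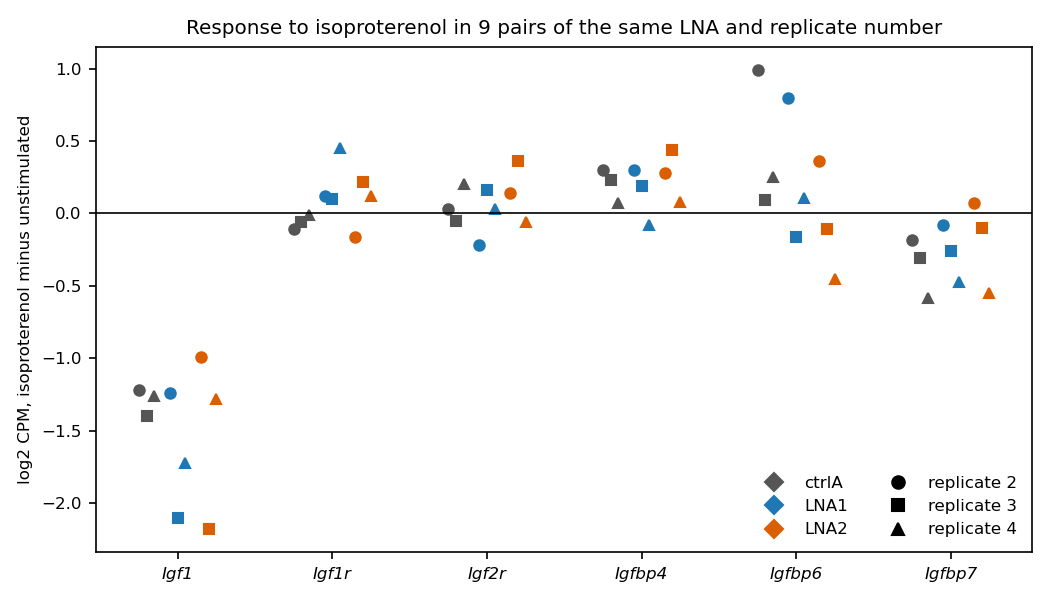
Difference in log2 CPM between stimulated and unstimulated cells (vertical axis) for each of 9 pairs of the same LNA and replicate number, by gene (horizontal axis), with the colour giving the LNA and the symbol the replicate number. All 9 pairs of *Igf1* lie between -2.18 and -0.99, whereas those of the other genes lie on both sides of 0.

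Markers of other cell types were compared between the same states. The summed level of the 8 adipocyte markers ran from 17600 to 29100 CPM in unstimulated and from 13800 to 22500 CPM in stimulated libraries. Of these 8, *Adipoq*, the adipokine adiponectin, fell from 616 ± 102 to 379 ± 84.3 CPM (log2 fold change -0.71, edgeR adjusted p = 0.0073), and *Cidea*, a lipid droplet protein of brown fat, rose (1.27, adjusted p = 0.0011). The 8 preadipocyte and fibroblast markers summed to 226 to 504 against 306 to 525 CPM, with, among 6 tested, *Ly6a*, a surface antigen of progenitors, higher (1.58, adjusted p = 0.0415) and *Dpp4* at 0 in all libraries. The 5 macrophage markers summed to 8.23 to 28.6 against 12.2 to 44.3 CPM, with the lysosomal protein gene *Cd68* higher (0.90, adjusted p = 0.00618), while the defining markers *Ptprc* and *Adgre1* had at most 3 and 2 counts in any library. The endothelial markers *Kdr* and *Tek* and the mural marker *Rgs5* had at most 1, 2 and 1 counts. Sums over 4 endothelial markers (2.06 to 3.74 against 1.77 to 3.99 CPM) and 4 mural markers (27.5 to 47.8 against 19.6 to 42.1 CPM) overlapped, and none of their tested genes was called. The part of these markers in the fall of *Igf1* was not tested, and in bulk RNA fewer cells of a type and less RNA per cell cannot be told apart.

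LNA1 and LNA2 left no called change in *Igf1*, in comparisons that share the ctrlA libraries. Against ctrlA the log2 fold change was -0.34 with LNA1 (SE 0.23, 95% interval -0.84 to 0.16, edgeR adjusted p = 1) and -0.06 with LNA2 (SE 0.23, 95% interval -0.55 to 0.44, adjusted p = 0.988). *Igf1* was lower with LNA1 in 6 of 6 pairs of the same state and number, by 0.10 to 0.90 on the log2 scale, a uniformity shared by 12.1% of genes. Set against LNA1, LNA2 libraries had more *Igf1* in 6 of 6 pairs, at 0.29 on the log2 scale (SE 0.23, adjusted p = 0.911), and 11.4% of genes did so. On leaving out single libraries the LNA1 value ran from -0.59 (without LNA1 stimulated replicate 2) to -0.24 (without LNA1 stimulated replicate 3), and the LNA2 against LNA1 value from 0.10 (without LNA2 stimulated replicate 2) to 0.53 (without LNA1 stimulated replicate 2).

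*Igf2* (chr7:142650766-142666816, minus strand), the imprinted fetal ligand, was near the limit of detection, with 0 to 10 counts per library and 85 counts over all 18. It was at 0.463 ± 0.301 CPM in unstimulated and 0.295 ± 0.196 CPM in stimulated libraries (SD, n = 9; exact two-sided permutation test within LNAs, p = 0.177, adjusted p = 0.858 over 16 such tests, smallest possible p 0.00025 here and 0.005 between LNAs). In 6 of the 18 libraries, 3 of each state, it had 3 counts or fewer. LNA1 libraries held 0.516 ± 0.268 CPM, ctrlA libraries 0.329 ± 0.288 CPM and LNA2 libraries 0.292 ± 0.204 CPM (SD, n = 6), with adjusted p from 0.858 to 1 in the exact tests between them. Within pairs of the same state and number *Igf2* was higher with LNA1 than with ctrlA in 5 of 6 (exact permutation p = 0.0625, adjusted p = 0.25 over 4 such tests, smallest possible p 0.0312). A difference between groups was thus not detected. Exons of *Igf2* overlap those of *Gm49394* on the same strand over 3596 bases and of *Igf2os* on the opposite strand over 98 bases, so the assignment of its few reads is uncertain.

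*Igf1r* (ENSMUSG00000005533.10, chr7:67952827-68233668, plus strand) encodes the signalling receptor. In unstimulated cells it was at 14.8, 46.7 and 43.9 CPM with ctrlA, at 20.8, 52.7 and 51.9 CPM with LNA1, and at 17, 33.7 and 37.3 CPM with LNA2 (replicates 2, 3 and 4). After isoproterenol it was at 13.7, 44.8 and 43.6 CPM with ctrlA, at 22.5, 56.5 and 71 CPM with LNA1, and at 15.2, 39.2 and 40.4 CPM with LNA2. Within every replicate number and state the LNA1 library was the highest of the 3, and the replicate 2 libraries were the lowest of every group.

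*Igf2r* (ENSMUSG00000023830.14, chr17:12682406-12769664, minus strand), the scavenging receptor, had the same dependence on the replicate number. It was at 58.3, 188 and 177 CPM with ctrlA, 70.2, 166 and 168 CPM with LNA1 and 64, 165 and 174 CPM with LNA2 in unstimulated cells. In stimulated cells it was at 59.7, 181 and 204 CPM with ctrlA, 60.4, 185 and 171 CPM with LNA1 and 70.3, 212 and 167 CPM with LNA2. Its levels in replicates 3 and 4 lay between 165 and 212 CPM in all groups, and the ranges of the LNAs and those of both states overlapped.

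The mean of the 6 replicate 2 libraries was 17.3 ± 3.56 CPM for *Igf1r* against 46.8 ± 10.1 CPM in the other 12, and 63.8 ± 5.32 against 180 ± 15.1 CPM for *Igf2r* (SD). Neither gene overlapped between these libraries, and 17.1% of all tested genes had all replicate 2 libraries below the rest in the same way. The log2 ratios of -1.43 and -1.49 were among the lowest, with 1.83% and 1.5% of genes lower still. *Igf1* (0.46), *Igfbp4* (0.11), *Igfbp6* (0.48) and *Igfbp7* (0.02) had ratios above 0 and overlapped. The higher share of the single ribosomal RNA gene and of mitochondrial genes in the same 6 libraries moved with these levels, and its part in them was not tested. Across the 18 libraries, which share these replicate numbers, *Igf1r* and *Igf2r* had a Pearson correlation of 0.91, which was 0.01 after the mean of each replicate number was removed.

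Isoproterenol left both receptors without a called change. The log2 fold change was 0.11 for *Igf1r* (SE 0.33, 95% interval -0.60 to 0.82, edgeR adjusted p = 0.965) and 0.09 for *Igf2r* (SE 0.35, 95% interval -0.65 to 0.83, adjusted p = 0.973). Their pairs were spread around 0, from -0.16 to 0.45 for *Igf1r* and from -0.22 to 0.36 for *Igf2r*. With the replicate block the values were 0.09 (SE 0.06, adjusted p = 0.358) and 0.07 (SE 0.06, adjusted p = 0.398).

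Between the LNAs, *Igf1r* was lower with LNA2 than with LNA1, at 30.5 ± 11.4 against 45.9 ± 20 CPM (SD, n = 6). Without a block this difference of -0.58 on the log2 scale was within the spread (SE 0.41, 95% interval -1.45 to 0.29, edgeR adjusted p = 0.835), and none of the 6 tested genes of the axis was among the 0.923% of genes called (0.589% lower, 0.334% higher). With the replicate number as a block it was called, at -0.57 (SE 0.08, edgeR adjusted p = 0.000236), against a background of 4.11% of genes. Without the replicate 2 libraries it was -0.62 (edgeR adjusted p = 0.0022). *Igf1r* was lower with LNA2 in 6 of 6 pairs of the same state and number, by 0.29 to 0.81 on the log2 scale, as were 10.9% of all genes. In 18 blocked fits that each left out a library the value stayed between -0.61 and -0.51, with an adjusted p of at most 0.00169 (edgeR). These blocked fits were not planned and were read for this gene and comparison alone.

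Set against ctrlA, *Igf1r* was higher with LNA1 in 6 of 6 pairs, by 0.17 to 0.72 on the log2 scale, as were 7.91% of genes. The fold change was 0.40 (SE 0.41, edgeR adjusted p = 1), and with the block 0.43 (SE 0.08, adjusted p = 0.00316), which is under the limit of 0.5. The unblocked value ran from 0.23 without ctrlA stimulated replicate 2 to 0.60 without LNA1 stimulated replicate 2. In stimulated cells alone the blocked LNA1 effect was 0.57 (SE 0.11, edgeR adjusted p = 0.0114) and was called, with 1.45% of genes called in that comparison (0.0134% without the block), and in unstimulated cells it was 0.29 (SE 0.11, adjusted p = 0.288). The LNA1 by isoproterenol interaction of *Igf1r* was 0.30 (SE 0.81, adjusted p = 1), and with the block 0.28 (SE 0.16, adjusted p = 1). With LNA2 *Igf1r* was lower than with ctrlA in 4 of 6 pairs, at -0.18 (SE 0.41, adjusted p = 0.978). Of the markers, *Pdgfra*, a receptor of preadipocytes and fibroblasts, was called as higher with LNA1 (0.89, adjusted p = 0.00743) and with LNA2 (0.71, adjusted p = 0.0121, edgeR). It was the only 1 called of 6 tested preadipocyte and fibroblast markers, whose median log2 fold change was 0.01 with LNA1 and 0.22 with LNA2. The 2 tested macrophage markers had a median of -0.01 with LNA1 and 1.31 with LNA2, with 0 called in each. The part of these markers in the *Igf1r* values was not tested.

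**Figure D3:**
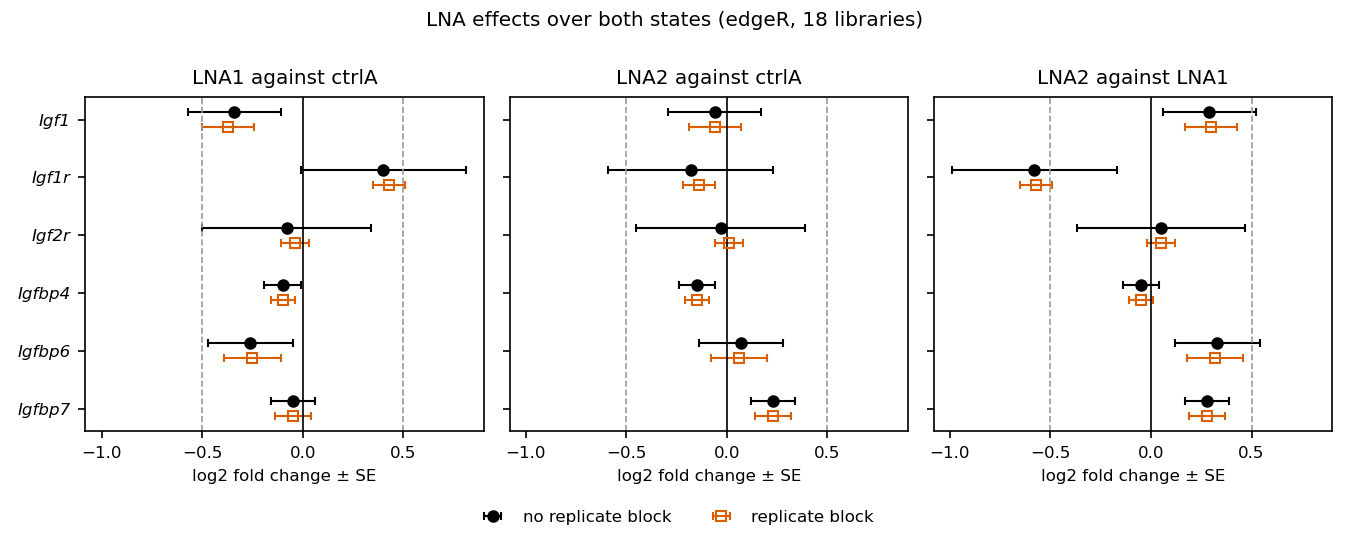
Log2 fold change with its SE (horizontal axis) of the 6 tested genes for LNA1 against ctrlA, LNA2 against ctrlA and LNA2 against LNA1, averaged over both states, without (filled circles) and with (open squares) the replicate number as a block, dashed lines marking the limit of 0.5. The SE of *Igf1r* fell from 0.41 to 0.08 with the block, and its LNA2 against LNA1 value of -0.57 lies beyond the limit.

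*Igf2r* did not separate the LNAs. Its log2 fold change was -0.08 with LNA1 and -0.03 with LNA2 against ctrlA (SE 0.42 each, edgeR adjusted p = 1 and 0.998), with 3 of 6 pairs lower in each case. With the block the intervals narrowed to -0.04 (SE 0.07, adjusted p = 0.811) and 0.01 (SE 0.07, adjusted p = 0.94).

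*Igfbp4* (ENSMUSG00000017493.12, chr11:99041244-99054392, plus strand) encodes a binding protein that is cleaved by PAPP-A. In unstimulated cells it was at 209, 196 and 197 CPM with ctrlA, 182, 192 and 202 CPM with LNA1 and 188, 169 and 175 CPM with LNA2. After isoproterenol it was at 257, 230 and 208 CPM with ctrlA, 223, 219 and 192 CPM with LNA1 and 229, 229 and 184 CPM with LNA2. The states overlapped, although the stimulated library was the higher in 8 of 9 pairs, with LNA1 replicate 4 as the exception. The log2 fold change was 0.20 (SE 0.07, 95% interval 0.05 to 0.36, edgeR adjusted p = 0.16), and with the block 0.20 (SE 0.05, adjusted p = 0.00527), which is under the limit of 0.5 for a call. With LNA2 *Igfbp4* was lower than with ctrlA in 6 of 6 pairs, by 0.01 to 0.21 on the log2 scale (-0.15, SE 0.09, adjusted p = 0.689), as were 12.1% of genes.

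*Igfbp7* (ENSMUSG00000036256.13, chr5:77349240-77408041, minus strand) encodes a secreted protein that binds IGFs weakly. With ctrlA it went from 61.3, 53.8 and 57.1 CPM to 54.1, 43.3 and 38.1 CPM. With LNA1 it was at 46.9, 58 and 57.6 CPM before and 44.5, 48.4 and 41.6 CPM after stimulation, and with LNA2 at 57, 65.7 and 68.2 CPM before and 59.7, 61.2 and 46.7 CPM after. The stimulated library was the lower in 8 of 9 pairs, with LNA2 replicate 2 as the exception. The log2 fold change was -0.27 (SE 0.09, 95% interval -0.46 to -0.08, edgeR adjusted p = 0.119; with the block -0.27, adjusted p = 0.0123), under the limit for a call. *Igfbp7* was also higher with LNA2 than with LNA1 in 6 of 6 pairs, by 0.17 to 0.43 on the log2 scale, without passing the test (0.28, SE 0.11, edgeR adjusted p = 0.397; with the block 0.28, adjusted p = 0.0518), and 11.4% of genes were higher in all such pairs. Its exons share 85 bases with *Polr2b* on the opposite strand, and the sources used here do not say whether the counting used strand.

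*Igfbp6* (ENSMUSG00000023046.6, chr15:102144362-102149511, plus strand) encodes a binding protein that prefers IGF2. With ctrlA it was at 10.6, 11.7 and 9.54 CPM before and 20.9, 12.5 and 11.3 CPM after isoproterenol, with LNA1 at 8.74, 11.6 and 8.34 before and 15.3, 10.4 and 8.98 after, and with LNA2 at 15.2, 13 and 11.3 before and 19.5, 12.1 and 8.3 CPM after. The high stimulated values were those of replicate 2, where the mean of the pairs was 0.72 on the log2 scale, against -0.06 in replicate 3 and -0.03 in replicate 4. The pooled fold change of 0.26 (SE 0.17, 95% interval -0.12 to 0.63, edgeR adjusted p = 0.613) turned to -0.05 (adjusted p = 0.834) without the replicate 2 libraries. With LNA1 *Igfbp6* was below ctrlA in 6 of 6 pairs, at -0.26 (SE 0.21, adjusted p = 1), as were 12.1% of genes. This value ran from -0.38 without LNA1 stimulated replicate 2 to -0.09 without ctrlA stimulated replicate 2.

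The remaining binding proteins were hardly detected. *Igfbp5* (chr1:72857932-72874884, minus strand), a binding protein of bone and muscle cells, had 14 counts over the 18 libraries and at most 3 in any. *Igfbp2* (chr1:72824503-72852474, plus strand) had 3 counts in total, 2 in ctrlA stimulated replicate 2 and 1 in LNA2 stimulated replicate 4. *Igfbp3* (chr11:7206086-7213923, minus strand), the main carrier of IGFs in blood, had 2 counts in total, both in LNA1 libraries. All 3 genes were at or under 3 counts in every library, so a level above 0.17 to 0.306 CPM was not seen, and no fold change is given.

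Over the whole axis, then, isoproterenol called 1 of 6 tested genes, and LNA1 and LNA2 each called 0 of 6 in the unblocked test, with 3.2%, 0.442% and 1.42% of all genes called (edgeR). The called genes were 0.0401% lower and 0.401% higher for LNA1, and 0.442% lower and 0.983% higher for LNA2. None of the 6 was higher with LNA2 than with ctrlA in all 6 pairs, as 9.91% of genes were. At an unadjusted p under 0.05, the numbers were 3 of 6 for isoproterenol and 0 of 6 for each LNA, against 15%, 6.01% and 10.6% of all tested genes, and by DESeq2 the calls were also 1, 0 and 0, with 4.21%, 0.89% and 2.26% of all genes. With the block, 3, 2 and 2 of the 6 had an unadjusted p under 0.05, as had 5624, 3322 and 5138 of the 14949 genes (edgeR). The interaction terms called none of the 14949 genes (105 and 116 at an unadjusted p under 0.05, and 0 and 2 by DESeq2). The joint test over the 6 groups, called at an adjusted p under 0.001, gave an adjusted p of 0.0094 for *Igf1* and of 0.352 to 1 for the other 5, with 0.455% of genes called. With the block *Igf1* (adjusted p = 1.94e-06) and *Igf1r* (adjusted p = 0.000571) were called in it, with 8.93% of all genes (edgeR).

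Isoproterenol also changed some genes that act upstream of *Igf1* or on the availability of IGFs. From a list of 46 further genes of the pathway, 38 were tested, of which 3 were higher and 3 lower after stimulation. These 6 are 15.8% of the 38, against 3.2% of all tested genes, and at an unadjusted p under 0.05 there were 12, or 31.6%, against 15%. The median log2 fold change of the 38 was -0.04, against 0 over all tested genes. No test of the list as a whole was made, and its genes were chosen with earlier results known.

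Of the growth hormone branch (6 of 6 tested), 1 gene was higher and 2 were lower. *Ghr*, the growth hormone receptor, fell from 144 ± 23.8 to 71.8 ± 21.8 CPM (SD, n = 9; log2 fold change -1.02, SE 0.16, edgeR adjusted p = 0.00153). Its unstimulated libraries ran from 111 over a median of 147 to 174 CPM and its stimulated ones from 42.2 over 70 to 109 CPM, so the states did not overlap, as for 0.428% of genes in this direction. *Socs2*, a STAT5 target that restrains growth hormone signalling, rose from 34.9 ± 9 to 70.3 ± 21.6 CPM (0.98, SE 0.16, adjusted p = 0.00164) and was higher in 9 of 9 pairs, as were 8.4% of genes. *Cish*, another STAT5 target and inhibitor, fell from 5.22 ± 1.17 to 3.27 ± 0.866 CPM (-0.69, SE 0.15, adjusted p = 0.0112), with 8 of 9 pairs lower. These inhibitors, both STAT5 targets, thus moved in opposite directions.

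Of the genes for IGF availability (8 of 12 tested), 2 were higher and 0 lower. *Pappa2*, the protease of IGFBP3 and IGFBP5, rose from 6.51 ± 1.81 to 23.4 ± 6.25 CPM (log2 fold change 1.85, SE 0.20, edgeR adjusted p = 4.66e-05). Its unstimulated libraries ran from 3.97 over 6.52 to 9.76 CPM and its stimulated ones from 15.1 over 24.9 to 31.8 CPM, with no overlap, as for 0.756% of genes in this direction. *Pappa*, the protease of IGFBP4, rose from 1.45 ± 0.46 to 2.43 ± 0.509 CPM (0.76, SE 0.16, adjusted p = 0.0115), higher in 9 of 9 pairs at 11 to 48 counts per library, and without the filter on low counts its adjusted p was 0.0727. The known substrates differ in level here, since *Igfbp4* was, with *Igfbp7*, among the most abundant binding proteins while *Igfbp3* and *Igfbp5* were at the limit of detection.

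None of 6 tested receptors and adaptors was called, with *Insr*, the insulin receptor, at -0.20 (SE 0.27, edgeR adjusted p = 0.874) and *Irs2*, its adaptor, at 0.29 (SE 0.30, adjusted p = 0.806). Of 14 PI3K and AKT genes 1, or 7.14%, was called: *Pik3r1*, the regulatory subunit of PI3K, fell from 212 ± 31.6 to 143 ± 19.8 CPM (-0.57, SE 0.11, adjusted p = 0.0046) and was lower in 9 of 9 pairs. None of 4 tested genes for *Igf2* RNA binding and imprinted neighbours was called. With the block *Plagl1*, an imprinted transcription factor, was called in addition (-0.97, adjusted p = 0.000637, unblocked -0.98 with adjusted p = 0.225), where 7% of genes were called.

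**Figure D4:**
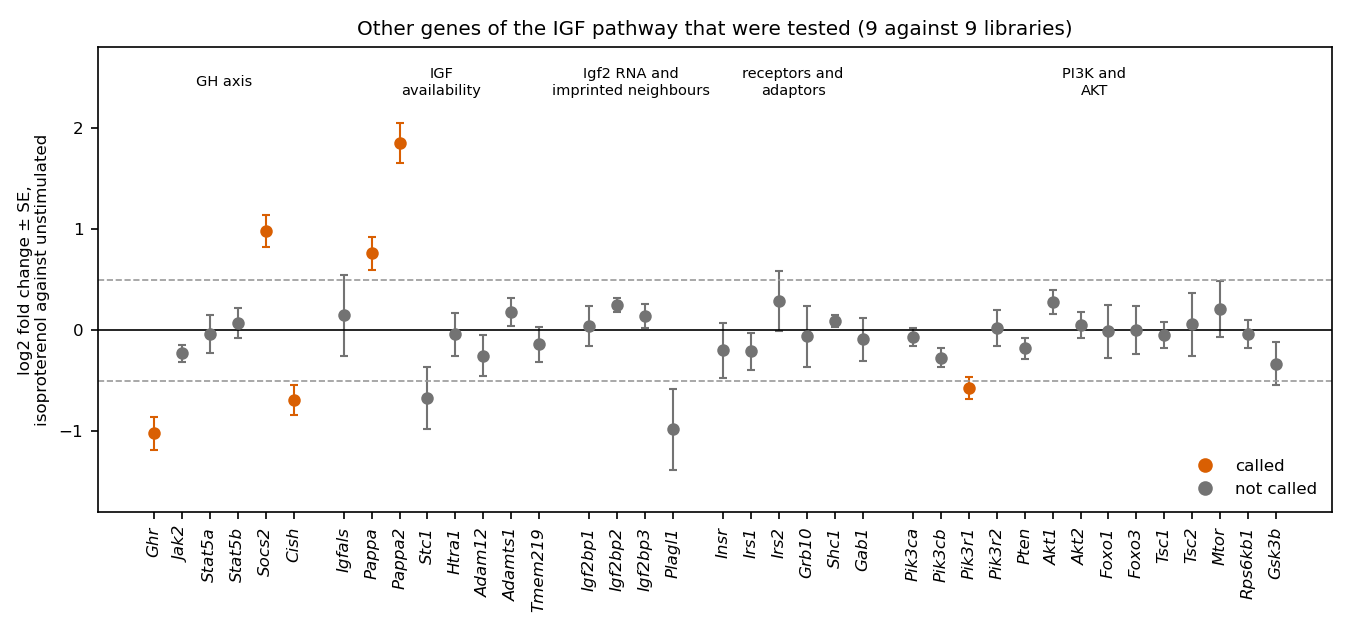
Log2 fold change with its SE (vertical axis) after isoproterenol for the 38 tested genes of the pathway list, grouped by role, with called genes in orange and dashed lines at the limit of 0.5. *Pappa2* at 1.85 and *Ghr* at -1.02 are the extremes among the called genes.

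For LNA1, LNA2 and LNA2 against LNA1, none of the 38 pathway genes was called without a block (edgeR). At an unadjusted p under 0.05 there were 1, 2 and 3, or 2.63%, 5.26% and 7.89%, against 6.01%, 10.6% and 9.2% of all tested genes. With the replicate block, *Grb10*, an adaptor that inhibits insulin and IGF1 receptors, was higher with LNA1 (log2 fold change 0.50, adjusted p = 0.00426, unblocked 0.54 with adjusted p = 1), where 2.43% of genes were called. *Stat5b*, the transcription factor of growth hormone signalling, was lower with LNA2 than with ctrlA (-0.64, adjusted p = 8.85e-05, unblocked -0.66 with adjusted p = 0.0956) and than with LNA1 (-0.76, adjusted p = 3.24e-05, unblocked -0.78 with adjusted p = 0.0545). *Pappa* was lower with LNA2 than with ctrlA (-0.57, adjusted p = 0.0381), and *Socs2* was lower with LNA2 than with LNA1 (-0.58, adjusted p = 0.000955). Without the replicate 2 libraries *Stat5b* and *Socs2* were called in these comparisons, blocked or not, and *Grb10* and *Pappa* were not. The backgrounds with the block were 5.53% for LNA2 and 4.11% for LNA2 against LNA1.

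The genes whose levels were most like those of *Igf1* over the 18 libraries, after the mean of each replicate number was removed, were *Plaat3* (Pearson r = 0.979), *Insig1* (0.977) and *Lgals12* (0.969). *Plaat3*, a phospholipase of adipocytes, fell with isoproterenol from 234 ± 49 to 136 ± 37.2 CPM, *Insig1*, a sterol-sensing inhibitor of SREBP processing, from 871 ± 59.9 to 465 ± 48.3 CPM, and *Lgals12*, a galectin of lipid droplets, from 125 ± 15.9 to 82 ± 11 CPM (SD, n = 9). These genes were chosen for their likeness to *Igf1* over libraries of both states, so their falls are a description. With the mean of each state removed as well, r was 0.801, 0.783 and 0.836. Within the axis, r with *Igf1* was 0.58 for *Igfbp7*, -0.66 for *Igfbp4*, -0.17 for *Igfbp6*, -0.33 for *Igf1r* and -0.30 for *Igf2r*. Here only the mean of each replicate number was removed, so these values still hold the difference between the states.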

How the data were processed

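RNA of 18 wt1-SAM libraries was sequenced as paired-end reads after NEBNext Ultra II preparation. Per the paper's methods and the submitters' processing notes, reads were trimmed with cutadapt and quantified with salmon against Gencode M22 (GRCm38). The versions and the way transcripts were summed to genes are not given in the sources used here. The deposited values are expected counts per gene, which the authors gave as whole numbers, so none was rounded.

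From these, edgeR 4.0.16 (R 4.3.3, limma 3.58.1) fitted TMM-normalised counts with 1 term per group over all 18 libraries and the quasi-likelihood test, after filterByExpr (minimum count 10, minimum total 15). P-values were Benjamini-Hochberg adjusted over 14949 genes. Calls needed an adjusted p under 0.05 and an absolute log2 fold change above 0.5, or an adjusted p under 0.05 for interactions and under 0.001 for the joint test. CPM used TMM library sizes. Levels per kb used merged exons of GENCODE M21 (GRCm38), and log2 CPM a prior count of 2. The code of the unblocked fit was tested on simulated counts with an isoproterenol effect and no replicate effect. That simulation did not cover the blocked fits.

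Same-numbered libraries deviated together (45 of 45 pairs with a correlation above 0.1, from 0.24 to 0.722, against 29 of 90 pairs of different numbers, from -0.596 to 0.404, and 17 of 18 libraries closest to their own number), so blocked values stand beside results they change. Deviations were taken from the mean of each group, which draws correlations between different numbers below 0 where same-numbered libraries correlate. The contrast with pairs of different numbers is thus partly built in. No pair of libraries within a group agreed within sampling noise (chi-square per degree of freedom of 3.07 to 107 over 18 pairs). Genes below the filter had exact permutation tests of CPM. Those of *Gm15551*, and the test of *Igf2* within pairs adjusted over 4 comparisons, and likeness to *Igf1* with state means removed were added after seeing the data. Blocked fits without the replicate 2 libraries were also not planned. Nor were blocked fits leaving out each library, which were read for *Igf1r* in LNA2 against LNA1 alone.

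Named were all 10 genes, called genes of the pathway list (at most 6 per comparison, those with the largest fold change) and the 3 genes most like each called gene. Members and lists were chosen with earlier results of these data known. Genes called only with the block were named after their values were seen. Alternatives were DESeq2 size factors, DESeq2 1.42.0, no filter, the replicate block, leaving out replicate 2 or each library, and fitting only the groups compared. Depth limits precision, and detection limits cover counting error only. RefSeq promoters (GRCm38.p6) matched 10 of 10 genes, in 14 windows.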

Additional observations from a re-analysis of the deposited data

Results flagged for a closer look

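In 2 of 36 contrasts compared between groups, every pair of one group moved one way and every pair of the other the opposite way. Over all tested genes and the same 6 kinds of contrast, 1.64% did so. The response of *Igf1r* to isoproterenol was -0.11 to -0.01 on the log2 scale in the 3 ctrlA pairs and 0.10 to 0.45 in the 3 LNA1 pairs, a difference of the means of 0.28. The interaction test of this difference did not pass (edgeR, 0.30, SE 0.81, adjusted p = 1; with the replicate block 0.28, SE 0.16, adjusted p = 1). *Igfbp6* was higher with LNA2 than with ctrlA by 0.16 to 0.53 in the 3 unstimulated pairs and lower in the 3 stimulated pairs, at -0.45 to -0.04, a difference of the means of -0.51. Its interaction test did not pass either (edgeR, -0.49, SE 0.43, adjusted p = 1; with the replicate block -0.50, SE 0.27, adjusted p = 0.81).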

How the results depend on the processing

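The fall of *Igf1* with isoproterenol and the count of 1 gene of the axis called in that comparison held under every alternative run. Pathway genes called for isoproterenol went from 6 to 5 with no filter, where *Pappa* was lost, and to 7 with the block, where *Plagl1* was added. With only replicates 3 and 4 there were 8, blocked or not. *Stc1* (-0.89, edgeR adjusted p = 0.028, blocked 0.0292) and *Plagl1* (-1.01, adjusted p = 0.0399, blocked 0.0414) were added there, both lower. The number of axis genes called for LNA2 against LNA1 rose from 0 to 1 (*Igf1r*) with the replicate block, with only replicates 3 and 4, and with both together. In the joint test it rose from 0 to 1 with DESeq2, with no filter, with only replicates 3 and 4 and with those blocked, and to 2 with the replicate block. Pathway genes called rose from 0 to 1 for LNA1 with the block, from 0 to 1 for LNA2 with DESeq2 and to 2 with the block (*Stat5b* and *Pappa*) or only replicates 3 and 4 (*Stat5b* and *Adam12*), and for LNA2 against LNA1 to 1 with either DESeq2 setting, 2 with the block and 3 with only replicates 3 and 4, blocked or not. Leaving out single libraries gave 0 to 1 there (*Stat5b*), without ctrlA stimulated replicate 2, LNA1 unstimulated or stimulated replicate 2, or LNA2 stimulated replicate 3. Over all genes, the block moved the calls from 479 to 1046 for isoproterenol, from 66 to 364 for LNA1, from 213 to 826 for LNA2, from 138 to 615 for LNA2 against LNA1 and from 68 to 1335 in the joint test, and DESeq2 gave 629, 133, 338, 232 and 556. Only replicates 3 and 4 gave 726, 180, 738, 443 and 111, and with the block 763, 225, 821, 516 and 150. Fitting only the groups compared gave 125 for LNA2 and 70 for LNA2 against LNA1, and no filter gave 116 in the joint test. Leaving out single libraries gave 32 to 82, 113 to 262, 73 to 153 and 34 to 55 for LNA1, LNA2, LNA2 against LNA1 and the joint test.

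None of the values that changed sign was called. *Igfbp6* after isoproterenol was -0.05 with only replicates 3 and 4 and -0.06 with those blocked, *Igfbp7* with LNA1 was 0.13 under both, and *Igf2r* with LNA2 was 0.01 with the block. Leaving out single libraries gave, for isoproterenol, -0.02 to 0.23 for *Igf1r* and -0.04 to 0.21 for *Igf2r*. For LNA1 it gave -0.25 to 0.12 for *Igf2r* and -0.11 to 0.04 for *Igfbp7*. For LNA2 it gave -0.24 to 0.04 for *Igf1*, -0.35 to 0.00 for *Igf1r*, -0.20 to 0.16 for *Igf2r*, -0.11 to 0.24 for *Igfbp6* and -0.104 to 0.0595 CPM for *Igf2*. For LNA1, *Igf2* differed by 0.087 to 0.284 CPM, with an unadjusted exact permutation p of 0.045 without ctrlA unstimulated replicate 4. Its isoproterenol difference ran from -0.211 to -0.0982 CPM and that of LNA2 against LNA1 from -0.29 to -0.125 CPM, the smallest in both without LNA1 unstimulated replicate 4. For LNA2 against LNA1 it gave -0.13 to 0.24 for *Igf2r* and -0.08 to 0.00 for *Igfbp4*. Interactions ran from -0.08 to 0.66 (LNA1) and -0.22 to 0.52 (LNA2) for *Igf1r* and from -0.52 to 0.05 (LNA2) for *Igf1*. The causes were not tested. Depth limited *Igf2*, *Igfbp2*, *Igfbp3*, *Igfbp5* and *Gm15551*.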
